A study of Mus musculus with 2 samples.

Results

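Open chromatin was followed at 479 peaks that lie around 13 Wnt-pathway and stem cell genes of the mouse intestine, in cell classes that run from stem cells to differentiated cells. The peaks were all those within 200 kb of the start of Lgr5, Olfm4, Ascl2, Smoc2, Axin2, Tnfrsf19, Ephb2, Ephb3, Sox4, Cd44, Rnf43, Znrf3 or Myc and further than 1 kb from any gene start, out of 146191 peaks in all, of which 109985 were further than 1 kb from any gene start. They are called distal peaks here. The windows held between 20 peaks (Sox4) and 58 (Ephb3), with a median width of 881 bases.

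A single mouse, 55 weeks old, supplied the epithelial cells of the small intestine; it was a TrnA mutant (TrnA is a mitochondrial transfer RNA gene) with a mutation load of 73%. The same cells gave both libraries, 1 of RNA and 1 of accessible chromatin (ATAC, in which a transposase cuts open DNA). With 1 animal and no animal without the mutation analysed here, no comparison has a replicate, none measures the mutation and no p-value is given. All intervals are 95% intervals that cover counting error only.

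In the intestinal crypt, Wnt signals from neighbouring cells stabilise beta-catenin, which with TCF/LEF factors turns on the genes that keep stem cells dividing. Cells that leave the crypt base lose this signal and become absorptive enterocytes or secretory cells (goblet, Paneth, enteroendocrine and tuft cells), while Paneth cells stay at the base and continue to receive it. Distal peaks are often enhancers, stretches of DNA that bind transcription factors and act on a gene from afar, although a peak within a window need not act on the gene that names the window. The nearest gene start was that of the window gene for 105 of the 479 peaks. By RefSeq gene bodies, 87 lay inside the window gene, 172 inside another gene only and 220 between genes.

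Sequence could be read for distal peaks only where a RefSeq promoter window, 250 bases before to 50 after a transcript start on GRCm38.p6 (the assembly behind mm10), fell inside a peak. All 6 such windows lie at starts of predicted or non-coding transcripts that the authors' annotation does not list as gene starts within 1 kb. They are shown because they cover all 3 outcomes described below: accessibility in enterocyte-like cells that was lower than, kept at or higher than the level in stem-like cells. Capitals mark matches, on either strand, to 8 motifs. The Wnt effectors TCF/LEF were searched as CTTTGAT and, in a less common form, as CTTTGAA. The letters for AP-1, a dimer of FOS and JUN proteins, were TGANTCA; those for CDX, the intestinal homeobox factors, were TTTATNG; and those for HNF4, a nuclear receptor of absorptive cells, were CAAAGTC. An E-box of the kind bound by ASCL2 was searched as CAGCTG, the site of GATA zinc finger factors as AGATAA and the core of the site for the insulator protein CTCF as CCACNAG. The first pair lost accessibility, the second pair kept it and the last pair gained it.
Axin2 window, Gm36876 start, chr11:108980489-108980788, + strand: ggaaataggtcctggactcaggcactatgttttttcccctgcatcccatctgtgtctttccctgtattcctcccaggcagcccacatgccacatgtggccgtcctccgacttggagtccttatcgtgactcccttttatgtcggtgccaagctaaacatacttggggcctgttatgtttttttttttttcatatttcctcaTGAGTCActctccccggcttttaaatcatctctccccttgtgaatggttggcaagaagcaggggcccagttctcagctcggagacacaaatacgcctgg
Smoc2 window, Gm34772 start, chr17:14252674-14252973, - strand: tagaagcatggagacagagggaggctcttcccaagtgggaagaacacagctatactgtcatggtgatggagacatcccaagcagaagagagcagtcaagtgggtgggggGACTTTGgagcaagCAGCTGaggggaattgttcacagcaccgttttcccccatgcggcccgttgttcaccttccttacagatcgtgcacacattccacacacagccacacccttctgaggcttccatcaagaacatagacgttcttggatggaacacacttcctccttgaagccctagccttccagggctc
Axin2 window, Gm46298 start, chr11:108910910-108911209, - strand: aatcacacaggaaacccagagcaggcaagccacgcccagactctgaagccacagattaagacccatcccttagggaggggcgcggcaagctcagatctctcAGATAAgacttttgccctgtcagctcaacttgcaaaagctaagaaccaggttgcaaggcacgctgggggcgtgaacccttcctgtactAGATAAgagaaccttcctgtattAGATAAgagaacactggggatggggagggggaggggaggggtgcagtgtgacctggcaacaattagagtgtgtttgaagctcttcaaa
Znrf3 window, Gm11963 start, chr11:5485630-5485929, + strand: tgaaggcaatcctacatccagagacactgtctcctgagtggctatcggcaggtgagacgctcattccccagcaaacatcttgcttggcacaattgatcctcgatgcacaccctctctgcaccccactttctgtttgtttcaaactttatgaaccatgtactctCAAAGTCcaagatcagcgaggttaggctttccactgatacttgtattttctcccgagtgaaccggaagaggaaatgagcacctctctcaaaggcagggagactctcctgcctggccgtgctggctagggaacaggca
Cd44 window, Gm34483 start, chr2:102940812-102941111, + strand: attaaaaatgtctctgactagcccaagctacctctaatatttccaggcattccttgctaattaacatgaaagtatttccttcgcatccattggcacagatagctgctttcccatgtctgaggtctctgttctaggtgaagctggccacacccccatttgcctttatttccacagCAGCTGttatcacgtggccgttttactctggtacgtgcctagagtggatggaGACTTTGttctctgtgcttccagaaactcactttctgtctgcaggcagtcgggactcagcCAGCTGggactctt
Cd44 window, Gm34483 start, chr2:102942074-102942373, + strand: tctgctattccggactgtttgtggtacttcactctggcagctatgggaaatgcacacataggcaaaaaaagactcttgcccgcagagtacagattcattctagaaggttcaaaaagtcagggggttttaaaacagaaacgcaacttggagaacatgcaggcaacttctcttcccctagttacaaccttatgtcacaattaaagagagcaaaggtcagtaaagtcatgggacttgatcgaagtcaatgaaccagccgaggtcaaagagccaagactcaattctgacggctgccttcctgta

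The enterocyte-like level was 0.0920 times the stem-like level in the peak of the first sequence and 0.155 times in the second. It was 0.939 and 0.906 times in the pair that kept accessibility, and 3.49 and 4.75 times in the pair that gained it. The first sequence held 1 AP-1 match, and the second held 1 HNF4 match and 1 E-box. Among the kept pair, the Axin2-window sequence held 3 GATA matches and the Znrf3-window sequence 1 HNF4 match. The first gained sequence held 1 HNF4 match and 2 E-boxes, and the last held none of these motifs. No TCF/LEF match lay in any of the 6 stretches, which says only that these letters are not in these bases. Over 32851 RefSeq promoter windows of the same length, 8.65% held either TCF/LEF form, 7.81% AP-1, 10.9% CDX, 4.44% HNF4, 16.3% the E-box, 11.2% GATA and 15.3% the CTCF core. A CCAAT box (CCAAT, 37.4% of windows) and a GC box (GGGCGG, 35.7%) were also searched and are not capitalised; 1 CCAAT match lay in the first gained sequence and no GC box in any.

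The cell classes were built from RNA after leaving out the 13 genes and every gene with a start within 200 kb of them, 111 genes in all. Kcnq1, 1 of these 111 genes, was still among the markers that named the stem-like cluster. Of 12363 barcodes, 9872 were kept, and 7 classes were named from marker genes: 576 stem-like cells, 1037 cycling-like, 2589 enterocyte-like, 1467 goblet-like, 288 Paneth-like, 214 enteroendocrine-like and 101 tuft-like. A further 3573 cells stayed unnamed. Lgr5 and Tnfrsf19, which did not enter the clustering, were among the 10 leading genes of the stem-like cluster. The enterocyte-like cells were shallower than the stem-like cells, with a median of 5926 against 10237 fragments in peaks per cell, and 77.7% against 56.4% of their UMIs (unique molecular identifiers, each 1 captured RNA molecule) came from mitochondrial DNA. The part of these differences in the results was not tested beyond the alternatives given in the closing section. Doublets, pairs of cells under 1 barcode, remain in the data, since the caller marked 0 cells. Accessibility is given as FPM, fragments in a peak per 1000000 fragments in all peaks of that class. Peaks around the immune genes Ptprc, Cd3e and Cd8a, which epithelial cells do not use, had a median of 2.26 FPM in stem-like and 2.45 FPM in enterocyte-like cells. The medians over all distal peaks were 2.03 and 1.77 FPM, and those of the 479 peaks 3.43 and 1.46 FPM. In lists of levels below, the classes are named without the suffix ("Paneth" for Paneth-like cells).

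More than any other outcome, the peaks lost accessibility in enterocyte-like cells. A peak was called lower when the class was at most 1/2 of the stem-like level with an interval below 1, higher when it was at least 2-fold above with an interval above 1, and kept when the whole interval lay within 2-fold. The rest were undetermined, and peaks with under 20 fragments over both classes were not called. In enterocyte-like cells, 224 of the 417 peaks with enough fragments were lower (53.7%), against 25.7% of all distal peaks. Another 23 were kept (5.52%, against 11.3%) and 50 were higher (12%, against 24.4%), while 120 were undetermined and 62 had too few fragments. The median ratio of enterocyte-like to stem-like accessibility was 0.451 over the tested members and 0.941 over all tested distal peaks. Summed over all 479 peaks, accessibility was 3172 FPM in stem-like and 1573 FPM in enterocyte-like cells, a ratio of 0.496 (0.487 to 0.505). Scaling by the median ratio of well-covered peaks moves all enterocyte-like log2 ratios up by 0.28 (the shift is -0.28 on the scale used), and under it 187 peaks were lower and 64 higher. These ratios say what was lower relative to other peaks of the same cells. With each cell thinned to 2000 fragments, 64 were lower and 19 higher. All distal peaks were not called under the median scaling or thinning. The counts under them therefore cannot be set against the 25.7% and 24.4%.

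**Figure D1:**
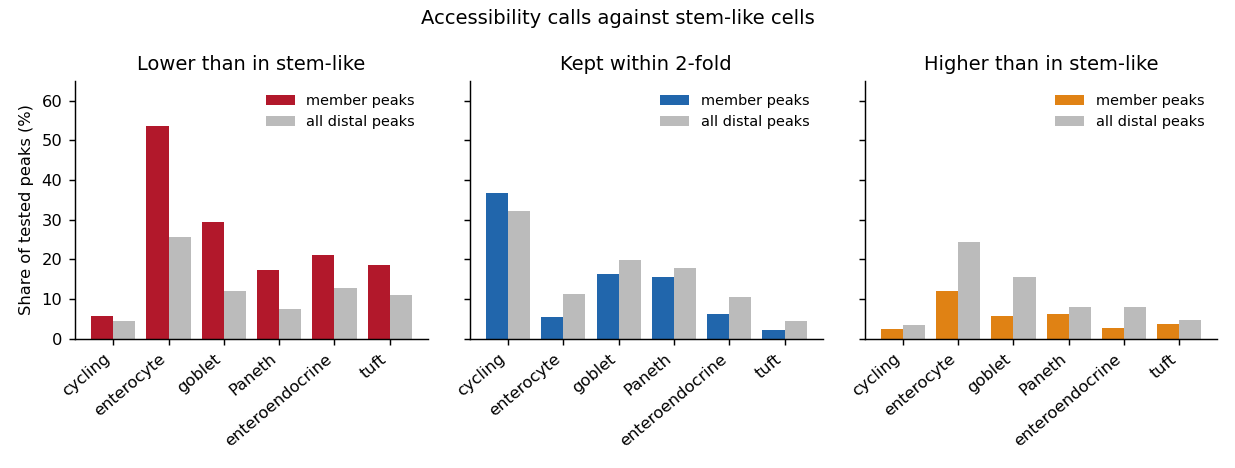
Share of tested peaks (%) called lower, kept or higher than in stem-like cells, for the distal peaks of the 13 windows (coloured bars) and all distal peaks (grey bars), in each of 6 classes of 1 mouse. The lower calls reach 53.7% in enterocyte-like cells against 25.7% of all distal peaks, and 5.66% against 4.45% in cycling-like cells.

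Cycling-like cells were named from genes of dividing cells, with the stem marker list scoring next, and may include dividing stem cells. In this class the shares of calls lay near those of all distal peaks. Of 424 tested peaks, 24 were lower (5.66%, against 4.45% of all distal peaks), 156 were kept (36.8%, against 32.1%) and 10 were higher (2.36%, against 3.33%). The summed level was 88.6% of that in stem-like cells. The kept count was 46 with a 1.5-fold threshold and 23 with each cell thinned to 2000 fragments. Shares of all distal peaks were not computed under these settings.

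In the secretory classes, lower calls also took a larger share of the tested peaks than of all distal peaks. In goblet-like cells, 126 of 430 tested peaks were lower (29.3%, against 11.9%), 70 were kept (16.3%, against 19.8%) and 25 were higher (5.81%, against 15.6%). In Paneth-like cells, 55 of 320 were lower (17.2%, against 7.54%), 50 were kept (15.6%, against 17.9%) and 20 were higher (6.25%, against 8.0%). Enteroendocrine-like cells, which release hormones, had 65 of 307 lower (21.2%, against 12.8%), 19 kept (6.19%, against 10.4%) and 8 higher (2.61%, against 7.85%). Tuft-like cells, which sense chemicals in the lumen, had 52 of 281 lower (18.5%, against 11.1%), 6 kept (2.14%, against 4.49%) and 10 higher (3.56%, against 4.81%). Summed levels were 61.3% of the stem-like level in goblet-like, 82.1% in Paneth-like, 66.5% in enteroendocrine-like and 68.0% in tuft-like cells. Under the median scaling, enteroendocrine-like cells were at 59.1% and tuft-like cells at 54.3%, below the enterocyte-like 60.2%, so the order of these classes depends on the scaling. These comparisons share the stem-like cells, and the small classes could settle few peaks, with 213 of 281 undetermined in tuft-like cells, so their counts cannot be ranked against each other. The Paneth-like and cycling-like counts depended on how the classes were built: with clusters made from ATAC peaks outside the windows, 169 and 95 peaks were lower. All distal peaks were not called with those clusters, so these counts have no share to be set against.

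A direct comparison of differentiated classes does not use the stem-like cells. Goblet-like over enterocyte-like accessibility was higher at 160 of 457 tested peaks (35.0%, against 20.2% of all distal peaks) and lower at 51 (11.2%, against 15.2%), with a median ratio of 1.46 against 1.13. Paneth-like over enterocyte-like accessibility was higher at 148 of 366 (40.4%, against 17.8%) and lower at 43 (11.7%, against 18.4%), with a median ratio of 1.76 against 0.926. Both comparisons share the enterocyte-like cells and were added after the values had been seen. With each cell thinned to 2000 fragments, 51 peaks were higher and 32 lower in goblet-like cells, and 16 were higher and 11 lower in Paneth-like cells. Shares of all distal peaks were not computed with thinned cells.

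**Figure D2:**
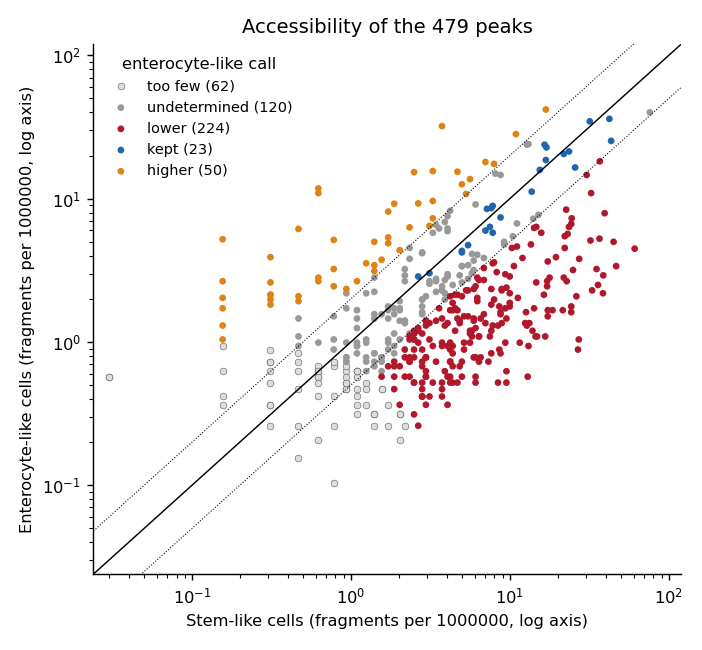
Accessibility of each of the 479 peaks in stem-like (x) and enterocyte-like (y) cells, in fragments per 1000000 on log axes; colours give the call with the number of peaks, the line marks equal levels, the dotted lines 2-fold, and the 2 peaks at 0 in stem-like cells are drawn at the left edge. The 224 lower peaks lie on or below the lower dotted line, as the call requires, and the 23 kept peaks lie mostly among the more open ones. Peaks with the lowest levels in both classes had too few fragments to be called.

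Peaks near the gene that names the window were lower most often. Between 1 and 10 kb from the gene's start, 31 of 37 tested peaks were lower in enterocyte-like cells (83.8%, against 25.7% of all distal peaks). None was higher, against 24.4% of all distal peaks, and the median ratio was 0.200. These peaks were also more open in stem-like cells, with a median of 7.33 FPM against 2.89 to 3.9 FPM further out. More fragments make a call easier, and the part of this in the share was not tested. The share of lower calls was 53.5% at 10 to 50 kb, 49.5% at 50 to 100 kb and 50.0% at 100 to 200 kb, where 30 of 182 peaks (16.5%) were higher. Distance to the nearest start of any gene can be measured for all distal peaks too: at 1 to 10 kb, 60.1% of 168 tested members were lower, against 24.8% of 39491 tested distal peaks, and at 10 to 50 kb 47.8% of 201 members, against 25.5%. At 50 to 100 kb it was 58.5% of 41 members, against 30.2%, and at 100 to 200 kb 42.9% of 7, against 31.8%. By this distance the share of members did not fall steadily. Peaks inside the window gene were lower in 67.1% of cases, those inside another gene in 54.2% and those between genes in 47.6%. Where the window gene had the nearest start, 66.3% were lower, against 50.2% where another gene did. Shares by gene body were not computed for all distal peaks. Around 20 other Wnt and stem genes, the same rule gave 37.0% lower among 774 tested peaks. Around goblet and Paneth genes it gave 26.4%, around absorption genes 10.2% (with 51.6% higher) and around the 3 immune genes 19.3%. All the absorption genes, and part of the other Wnt and stem list and of the goblet and Paneth list, were markers that named the classes. The shares around these 3 lists are therefore not independent of how the classes were built.

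Receptors and feedback inhibitors at the cell surface set how much Wnt signal a cell receives. LGR5, the receptor for R-spondins that marks crypt base stem cells, had 23 distal peaks. The most open of them, inside the gene at chr10:115505482-115506363, measured 38.5 FPM in stem-like, 34.3 in Paneth, 21.7 in cycling, 16.6 in goblet, 13.7 in enteroendocrine, 9.96 in tuft and 2.19 in enterocyte-like cells. It was kept in Paneth-like cells, with a ratio of 0.889 (0.695 to 1.13), and was 17.6-fold (12.7 to 25.1) more open in stem-like than in enterocyte-like cells. Summed over the Lgr5 window, Paneth-like cells were at 98.2% of the stem-like level and enterocyte-like cells at 59.3%. The second value contains a pair of peaks near Tspan8 that went different ways: chr10:115779981-115780883 rose from 10.9 FPM in stem-like to 28.2 FPM in enterocyte-like cells, and chr10:115786433-115787346 fell from 6.08 to 0.781 FPM. Lgr5 RNA was 712 UMIs per 1000000 in stem-like, 418 in Paneth and 10.2 in enterocyte-like cells.

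RNF43 and ZNRF3 are ubiquitin ligases that remove Frizzled receptors and so dampen the Wnt signal. The most open of all 479 peaks in stem-like cells lay inside Rnf43, 9.59 kb from its start at chr11:87709488-87710354, with 76.0 FPM in stem-like, 79.2 in cycling, 60 in Paneth and 40.0 in enterocyte-like cells. Its enterocyte-like ratio of 0.527 (0.470 to 0.592) was undetermined by the calls used. On the scale used, the Znrf3 window had the summed level closest to that in stem-like cells, at 93.9% in enterocyte-like cells (ratio 0.939, 0.868 to 1.02). Under the median scaling the Smoc2 window was at 91.8% and the Znrf3 window at 114%. Scaled to promoter peaks, the Znrf3 window was at 102%. Its most open peaks were both kept: chr11:5485291-5486166 had 23.6 FPM in stem-like and 21.4 FPM in enterocyte-like cells, and chr11:5505615-5506504 had 16.5 and 23.8 FPM. The member nearest the gene, 6.72 kb from the start at chr11:5451564-5452464, went from 12.5 FPM to 1.35 FPM. Znrf3 RNA in enterocyte-like cells was 5.54% of the stem-like level and Rnf43 RNA 13.3%, while the distal peaks of the Rnf43 window summed to 67.7%.

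AXIN2, a scaffold of the complex that destroys beta-catenin and itself a Wnt target, had a cluster of lost peaks far from its start. The largest loss of all members was at chr11:109102447-109103364, 179 kb from the start, where accessibility was 26.8 FPM in stem-like, 12.7 in cycling, 9.32 in enteroendocrine, 8.57 in Paneth, 7.97 in tuft, 4.56 in goblet and 0.885 in enterocyte-like cells. That is a 30.3-fold difference (18.4 to 53.3) between stem-like and enterocyte-like cells. A neighbour at chr11:109106087-109106889 went from 9.52 to 0.521 FPM, and the most open peak of the window, chr11:108984405-108985326, from 38.7 to 2.92 FPM. A peak on the other side of the gene, chr11:108906513-108907430, 12.9 kb from the start, was kept in enterocyte-like cells at 16.5 FPM against 25.7 FPM. Axin2-window peaks summed to 37.2% of the stem-like level in the enterocyte-like class, 46.9% for goblet-like and 63.3% for Paneth-like cells, and Axin2 RNA was at 19.0%, 17.2% and 39.4%.

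**Figure D3:**
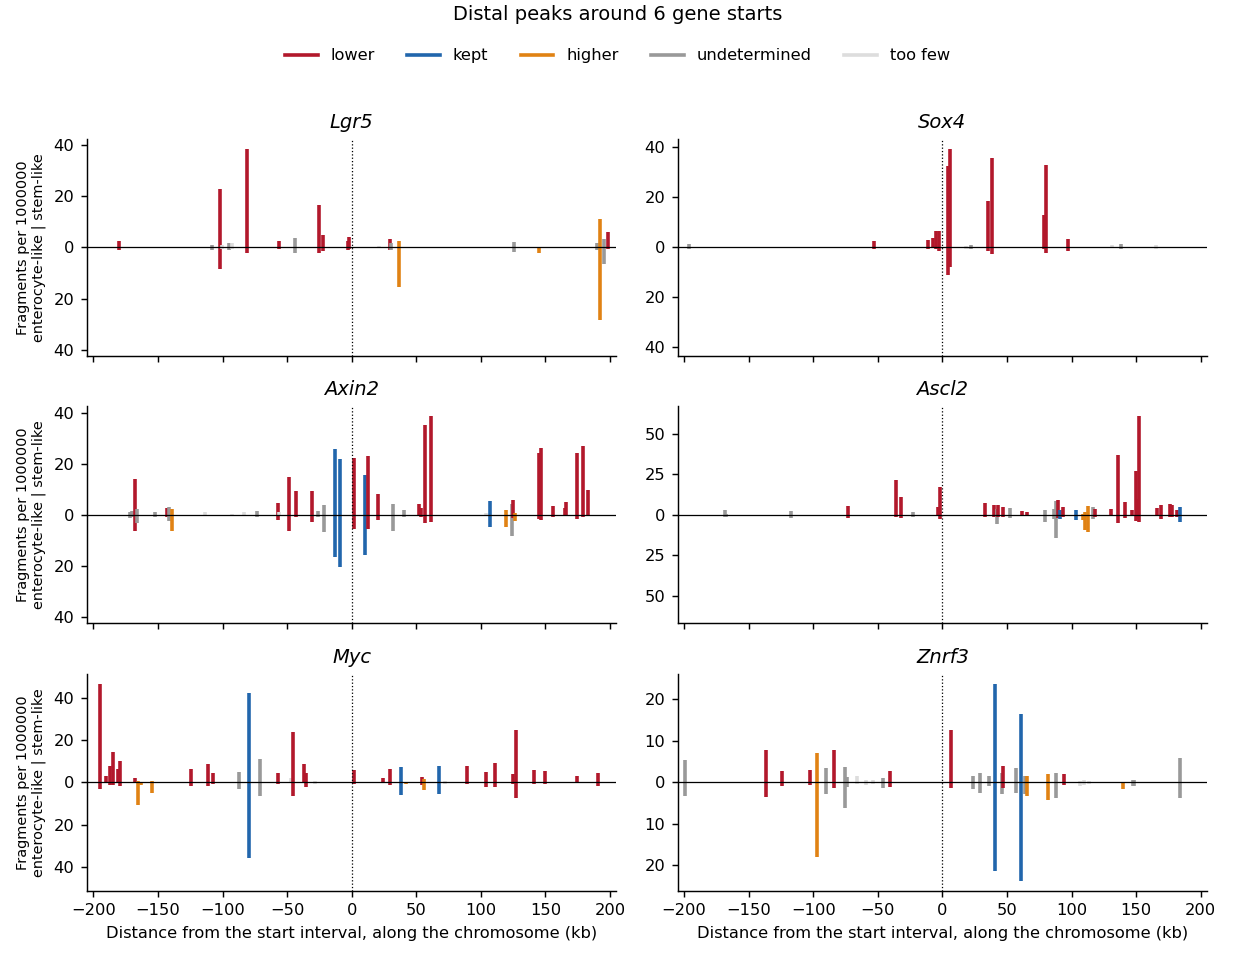
Distal peaks of 6 windows by distance from the gene's start interval along the chromosome (kb), with stem-like accessibility drawn upward and enterocyte-like accessibility downward in fragments per 1000000; each line is 1 peak, coloured by its call. The Axin2 losses far to 1 side, the largest 179 kb away, the more open Sox4 losses on 1 side of the gene and the pair of kept Znrf3 peaks stand out.

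Among the transcription factors, SOX4, an HMG-box protein that in mouse also promotes tuft and enteroendocrine cell formation, had 12 of 15 tested peaks lower in enterocyte-like cells (80%, against 25.7% of all distal peaks). The Sox4 window there was at 17.4% of the stem-like level. Its most open peak, chr13:28959362-28960237, measured 39.5 FPM in stem-like, 41.7 in enteroendocrine, 36.0 in cycling, 34.3 in Paneth, 31.5 in goblet, 25.9 in tuft and 7.91 in enterocyte-like cells. Summed, the Sox4 window stood at 93.1% in tuft-like and 85.7% in enteroendocrine-like cells, the classes in which Sox4 RNA was above the stem-like level, at 147% and 152%. Under the median scaling these classes stood out little, at 74.3% and 76.2%, beside 73.2% in goblet-like and 70.6% in Paneth-like cells. Within the same window, chr13:29032513-29033398 had 12.9 FPM in stem-like cells, 0.573 in enterocyte, 2.84 in goblet, 5.35 in Paneth, 3.44 in enteroendocrine and 1.99 in tuft-like cells.

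ASCL2, a basic helix-loop-helix factor that sets stem cell identity, lies in a window that it shares with Th, Cd81 and the large gene Kcnq1. The most open peak there lay inside Kcnq1, 153 kb from the Ascl2 start at chr7:143121860-143122781, with 61.0 FPM in stem-like, 60 in cycling, 27.5 in Paneth, 18.7 in enteroendocrine, 16.9 in tuft, 15.9 in goblet and 4.48 in enterocyte-like cells. Kcnq1 is itself a stem cell marker. The peak 2.16 kb from the Ascl2 start, chr7:142965657-142966552, had 17.2 FPM in stem-like, 15.8 in cycling and 12 in tuft-like cells but 2.45 to 8.21 FPM in the enterocyte-like, goblet-like, enteroendocrine-like and Paneth-like cells. Ascl2 RNA was 27.5 UMIs per 1000000 in stem-like and 17.1 in tuft-like cells, the latter resting on 5 UMIs. The summed ratio of enterocyte-like to stem-like accessibility in the Ascl2 window was 0.357, and 0.732 over its peaks further than 5 kb from any gene start.

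MYC, the growth-promoting factor downstream of Wnt, had 27 of 37 tested peaks lower in enterocyte-like cells (73.0%, against 25.7% of all distal peaks). At chr15:61789833-61790766, 195 kb from the start, accessibility was 46.7 FPM in stem-like, 37.0 in cycling, 30.3 in Paneth, 15.4 in goblet and 3.38 in enterocyte-like cells. In contrast, chr15:61904942-61905826 had 42.3 FPM in stem-like, 49.0 in cycling, 36.0 in enterocyte, 34.4 in goblet, 39.6 in Paneth, 27.0 in enteroendocrine and 34.9 in tuft-like cells. With an enterocyte-like ratio of 0.852 (0.740 to 0.984), it had the highest level of the kept peaks in enterocyte-like cells.

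Secreted stem cell products differed between the classes. OLFM4, a secreted glycoprotein that marks mouse crypt base cells, had its most open peak 18.1 kb from the start at chr14:79981196-79982112, with 27.1 FPM in stem-like, 14.7 in cycling, 12.1 in Paneth, 8.97 in tuft, 5.89 in enteroendocrine, 4.61 in goblet and 1.04 in enterocyte-like cells. The Olfm4 window in goblet-like cells was at 38.1% of the stem-like level (ratio 0.381, 0.348 to 0.416), against 44.1% in enterocyte-like cells (ratio 0.442, 0.405 to 0.482). Both ratios share the stem-like level, so their overlapping intervals do not compare the 2 classes. The levels themselves were 54.46 FPM (51.25 to 57.82) in goblet-like and 63.15 FPM (59.65 to 66.81) in enterocyte-like cells. Under the median scaling goblet-like cells stood at 42.5%, enterocyte-like cells at 53.6% and tuft-like cells, lowest of these, at 35.0%. SMOC2, a calcium-binding matrix protein, had 15 of 43 tested peaks lower and 9 higher in enterocyte-like cells, where 25.7% of all tested distal peaks were lower and 24.4% higher. Its most open peak, chr17:14234660-14235534, had 44.9 FPM in stem-like, 39.3 in Paneth and 5.0 in enterocyte-like cells. In the same window, chr17:14228105-14228960 went the other way, from 16.9 FPM in stem-like to 41.9 FPM in enterocyte-like cells.

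The remaining window genes encode proteins of the cell surface. EPHB2 and EPHB3 are receptors for B-type ephrins that sort cells between crypt and villus, and in mouse EPHB3 holds Paneth cells at the crypt base. The Ephb3 window was at 113% of the stem-like level in Paneth-like cells (ratio 1.13, 1.05 to 1.22) and at 50.1% in enterocyte-like cells, while Ephb3 RNA was at 194% and 7.14%. This RNA rested on 60 UMIs in Paneth-like, 44 in stem-like and 8 in enterocyte-like cells. The window summed to 379.8 FPM in Paneth-like and 335.9 FPM in stem-like cells. A single peak near Vps8, 173 kb from the start, held 19.3 and 0.624 FPM of these sums. At chr16:21202109-21202985, 1.77 kb from the Ephb3 start, accessibility was 24.6 FPM in Paneth-like, 16.7 in stem and 1.09 in enterocyte-like cells. For Ephb2, the peak at chr4:136842543-136843447, 6.55 kb from the start, was kept in enterocyte-like cells, with 43.4 FPM in stem-like and 25.3 in enterocyte-like cells. A peak inside the gene, chr4:136829615-136830499, had 19.5 FPM in stem-like, 21.1 in Paneth, 23.9 in tuft and 3.91 in enterocyte-like cells. CD44, a hyaluronan receptor and Wnt target, had its most open peak inside the gene at chr2:102815040-102815900, which went from 22.1 to 4.53 FPM, while chr2:102825771-102826641, also inside the gene, was kept at 16.9 and 18.6 FPM. The Cd44 window summed to a ratio of 0.647 in enterocyte-like over stem-like cells, but to 1.74 over its peaks within 50 kb, where the direction turned. TNFRSF19, a TNF receptor family member and Wnt target, had its most open peak at chr14:61056801-61057676, with 17.8 FPM in stem-like, 20.7 in Paneth and 2.81 in enterocyte-like cells.

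**Figure D4:**
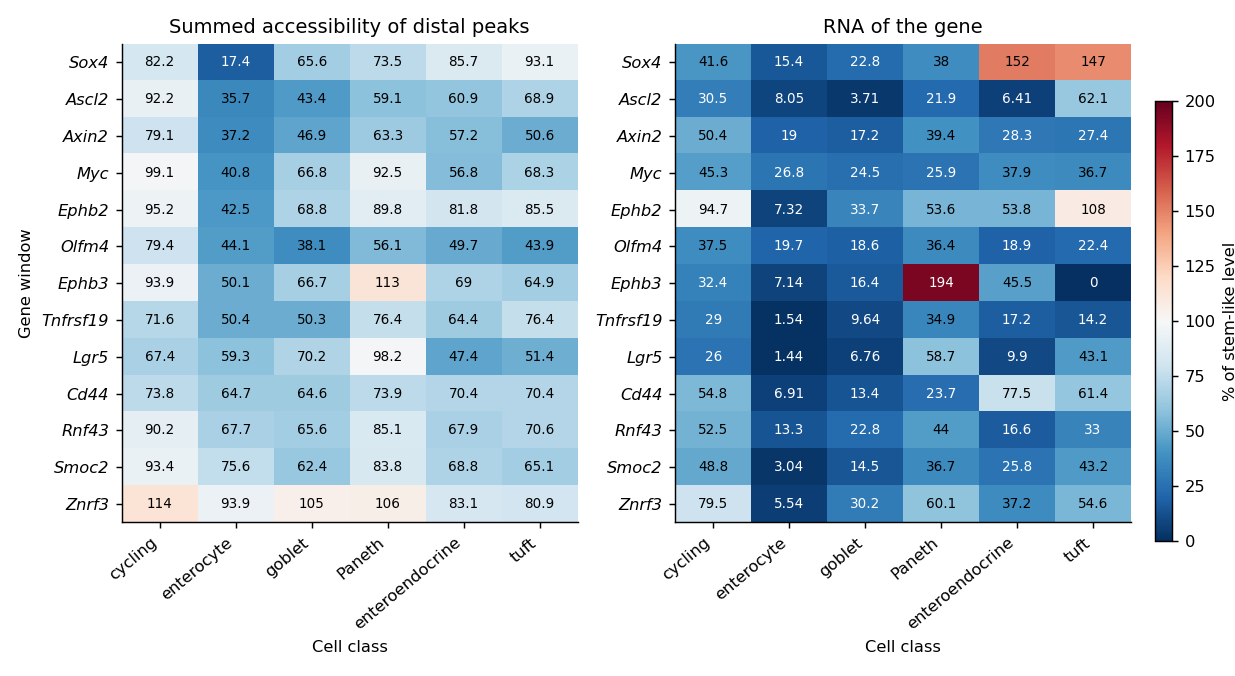
Summed accessibility of the distal peaks in each gene window (left) and RNA of the gene (right), each as a percentage of the stem-like level, in 6 classes of 1 mouse. In enterocyte-like cells accessibility runs from 17.4% (Sox4) to 93.9% (Znrf3) and RNA from 1.44% (Lgr5) to 26.8% (Myc); Ephb3 RNA in tuft-like cells is 0 UMIs.

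The kept peaks with the highest enterocyte-like levels were the Myc-window peak at 36.0 FPM, a peak inside Mtmr4 in the Rnf43 window at 34.6 FPM, the Ephb2 peak at 25.3 FPM, the second Znrf3-window peak at 23.8 FPM and a Smoc2-window peak at 22.8 FPM. The Mtmr4 peak, chr11:87595117-87595966, lay between 25.9 and 34.6 FPM in all 7 classes. The Smoc2-window peak, chr17:14225937-14226869, had 17.0 FPM in stem-like and 12 to 16.3 FPM in the other classes besides enterocyte-like cells. Of the 11 members that overlap a RefSeq promoter window, 27.3% were kept, against 4.93% of the other 406 tested members. Among the 11 are this Smoc2-window peak and the most open peaks of the Znrf3, Sox4 and Tnfrsf19 windows. Such overlaps were not counted for all distal peaks. A kept call needs many fragments, and in simulated data 46.5% of unchanged peaks received it, so 23 is not the number of peaks that did not change.

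Of the 50 gains in enterocyte-like cells, 30 lay 100 to 200 kb from the window gene's start, as did 182 of the 417 tested peaks, and none lay within 10 kb. By size, the top ones were chr17:14113210-14114106 in the Smoc2 window, with 5.21 FPM against 0.156 FPM (1 fragment) in stem-like cells and a ratio of 33.4 (5.85 to 1331), and chr17:14175856-14176620 in the same window, with 11.8 against 0.624 FPM and a ratio of 18.9 (7.26 to 69.8). Next came chr15:61819289-61820188 in the Myc window, with 10.9 against 0.624 FPM. The Ephb3-window peak chr16:21012387-21013305 had 2.66 against 0.156 FPM (1 fragment), a ratio of 17.0 (2.92 to 685), and the Tnfrsf19-window peak chr14:60913847-60914753 had 6.14 against 0.468 FPM (3 fragments), a ratio of 13.1 (4.38 to 64.6). All 5 lay more than 100 kb from the window gene's start.

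Some peaks within the windows were more open in a secretory class than in stem-like cells, and several of these were also open in other classes. In goblet-like cells the largest rise over stem-like cells was at chr13:29091812-29092716 in the Sox4 window, with 13.2 against 1.25 FPM, 6.87 to 7.97 FPM in the other secretory classes and 0.781 FPM in enterocyte-like cells. The next, chr17:14175856-14176620 in the Smoc2 window, had 4.01 FPM in goblet-like against 0.624 in stem-like cells, but 11.8 in enterocyte-like cells. In Paneth-like cells the largest rise was at chr16:21384432-21385311 near Vps8 in the Ephb3 window, with 19.3 against 0.624 FPM and at most 2.45 FPM in any other class. The next was inside Pvt1 in the Myc window, chr15:62041675-62042574, with 17.5 FPM in Paneth-like, 9.74 in goblet and 2.50 in stem-like cells. Enteroendocrine-like cells had 13.7 FPM at chr15:61897299-61898102 in the Myc window, against 4.99 FPM in stem-like cells, with 12.2 FPM in cycling-like cells. They also had 12.3 FPM at chr7:143153586-143154478 inside Kcnq1, against 4.99 FPM in stem-like cells, with 11.95 FPM in tuft-like cells. Tuft-like cells had 19.9 FPM at chr7:143062494-143063401 inside Cd81, against 4.68 FPM, and 33.9 FPM inside Ephb2 at chr4:136815157-136816061, against 10.3 FPM.

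The peaks were sorted by their enterocyte-like call and each set was summed in every RNA cluster, including those that had not chosen it. The 224 lower peaks summed to 1747 FPM in the cycling-like cluster, 1585 in the Paneth-like cluster, 1256 in the enteroendocrine-like cluster and 1242 in the tuft-like cluster, which here still holds 27 lymphocytes. In the 3 goblet-like clusters they summed to 1401, 935.5 and 657.3 FPM. The stem-like and enterocyte-like clusters, which chose the sets, had 2199 and 340.8 to 562.4 FPM. The gap between these ends follows from the calls, and choosing on the same counts can widen it. Among unnamed clusters the sum was 941.1 FPM in cluster 3, led by Gsdmc2, Gsdmc3 and Car4, and 403.2 FPM in cluster 7, led by Nt5e, Slc28a2 and Ada. The 23 kept peaks ranged from 241.4 to 361.9 FPM over all 17 clusters. Their call itself held the stem-like and enterocyte-like levels close. The same sums were not made for other distal peaks with these calls, so they cannot set the windows apart.

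**Figure D5:**
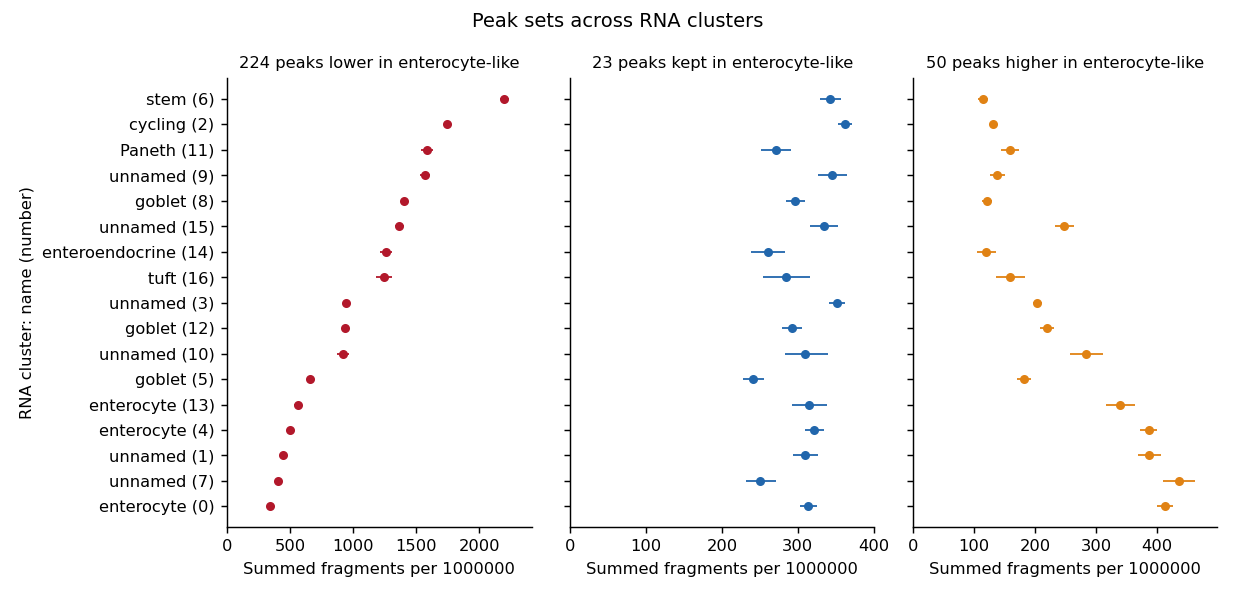
Summed accessibility (fragments per 1000000, with 95% counting intervals) of the peaks called lower, kept and higher in enterocyte-like cells, in each of the 17 RNA clusters of 1 mouse. The fall of the lower set from 2199 in the stem-like cluster to 340.8 in enterocyte-like cluster 0 follows from the calls. In clusters that did not choose it, the lower set runs from 403.2 (cluster 7) to 1747 (cycling-like). The kept set, whose call held the stem-like and enterocyte-like levels close, lies between 241.4 and 361.9.

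RNA of the 13 genes was at a smaller share of the stem-like level than the accessibility of their distal peaks in enterocyte-like cells. The values were 1.44% against 59.3% for Lgr5, with intervals far apart. For Myc they were 26.8% against 40.8%, as ratios 0.179 to 0.397 for RNA and 0.384 to 0.433 for accessibility. Only for Myc and Sox4 did the intervals overlap, with Sox4 at 15.4% against 17.4%. Free RNA from other cells adds to RNA values in droplets, and its part was not tested. Promoter peaks, which are not among the 479, were at 9.01% (Ascl2) to 68.7% (Axin2) of the stem-like level. Across the 17 clusters, which share 1 animal and differ in depth, the correlation of a peak's accessibility with the RNA of its window gene had a median r of 0.331, with r of at least 0.5 for 174 of 479 peaks and at least 0.8 for 34. The same shares were not computed for other distal peaks, so these counts cannot set the windows apart from the rest. The median r was 0.621 in the Ephb2 window and 0.587 in the Axin2 window, and in the Myc window none of 43 peaks reached 0.5. The peak most like its gene's RNA was chr11:5296924-5297727 inside Znrf3, with r of 0.94, followed by the Axin2-window peak with the largest loss, with r of 0.934.

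At the edges of the rule the levels were as follows. The member closest to the 200 kb limit, in the Znrf3 window, had 5.46 FPM in stem-like and 3.44 FPM in enterocyte-like cells, and the first peak past it, in the Axin2 window, had 1.56 and 0.573 FPM. Just outside 1 kb from a gene start, a Rnf43-window member inside Tex14 had 13.6 and 4.79 FPM, and the peak just inside, in the Lgr5 window, had 4.68 and 14.6 FPM.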

How the data were processed

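The deposited matrix holds raw counts that the authors made with Cell Ranger ARC 2.0.2 on the mm10 build, per the file headers and the submitters' processing notes: UMIs for 55401 genes and cut-site counts in 146191 peaks, 71697164 and 197564789 in all. Gene starts are the start intervals in the deposited feature list, which also gives peak positions. As 87.6% of peak values were even, a value was halved and rounded up to give fragments. Barcodes below 500 UMIs, 300 genes or 1000 peak counts were left out, and 9872 remained. Clusters came from 2000 variable genes, 30 principal components and 15 neighbours, with Leiden at resolution 1 (scanpy 1.11.5, leidenalg 0.10.2). A cluster was named when a marker list had a median log2 ratio of at least 0.4, stood 0.4 above the next list and had 3 detected markers. It stayed unnamed when its median nuclear UMIs were under 1/3 of that of all cells with no own marker among its top 10 genes, or when another list had more markers there. Lymphocytes (27 cells) were taken out of the tuft-like cluster after the clusters had been seen. Scrublet marked 0 cells.

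Fragments were summed per class; a class is 1 sample, so there is no test. Ratios have exact conditional (Clopper-Pearson) intervals and levels exact Poisson intervals, from scipy 1.17.1. On simulated data for enterocyte-like against stem-like cells (125381 peaks), 99.0% of 100 peaks raised 4-fold and 64.0% of 100 lowered 4-fold were called, as were 1.31% of unchanged peaks. Named peaks are the most open of each window in stem-like cells, the 5 largest losses and gains and, for each secretory class, 2 gains (with at least 50 fragments), and the 5 most open kept peaks and the edges; the other peaks named in the account of each window, the motifs and the peaks with sequences were chosen after their values had been seen. The members and gene lists were chosen with earlier results of these data known. Alternatives changed the scaling, fragment counting, depth, thresholds, clustering, cell filters and window.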

Additional observations from a re-analysis of the deposited data

How the results depend on the processing

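Of the values for the main comparisons, 148 held under the alternatives and 60 moved by more than 1.5 times (counts) or past their interval (the summed ratio). Of the others (kept and higher counts in other classes, and single windows), 250 held, 123 moved and 1 turned its direction: the Cd44 window's ratio was 1.74 within 50 kb. The Znrf3 window's ratio, whose interval holds 1, ran from 0.680 within 50 kb to 1.16 in enterocyte-like cluster 13. The range was 0.229 to 0.732 for Ascl2, 0.220 to 0.918 for Smoc2, 0.173 to 0.632 for Tnfrsf19, 0.239 to 0.621 for Ephb3, 0.229 to 0.536 for Olfm4 and 0.295 to 0.565 for Axin2. Kept counts were between 23 and 223 for cycling-like cells, 11 and 109 for the goblet-like class, 3 and 82 for the Paneth-like class, 0 and 47 for enteroendocrine-like cells, and 0 and 21 for the tuft-like class. Counts of peaks fell where fewer fragments or peaks were used. With each cell thinned to 2000 fragments, enterocyte-like calls were 64 lower, 7 kept and 19 higher, lower calls were 51 in goblet-like, 13 in Paneth-like, 19 in enteroendocrine-like, 11 in tuft-like and 10 in cycling-like cells, and 111 peaks had r of at least 0.5. With at least 100 fragments, enterocyte-like calls were 71 lower and 26 higher, and lower calls were 63, 20, 30, 26 and 7 in the same order of classes. With a window of 50 kb (154 peaks), they were 85 lower, 7 kept and 8 higher, then 55, 23, 25, 17 and 9 lower, and 81 peaks had r of at least 0.5. Over enterocyte-like cells, goblet-like calls were 51 higher and 32 lower when thinned, 71 and 30 with at least 100 fragments and 54 and 13 within 50 kb; Paneth-like calls were 16 and 11 when thinned, 60 and 10 within 50 kb, 91 and 21 with clusters from ATAC peaks, and 28 higher with at least 100 fragments. Clusters built from ATAC peaks gave 45 kept in enterocyte-like, 169 lower in Paneth-like and 95 lower in cycling-like cells, and no enteroendocrine-like or tuft-like class; the cause was not tested. A 1.5-fold threshold gave 6 kept in enterocyte-like and 64 lower in cycling-like cells, resolution 2 gave 39 lower in cycling-like cells, and deposited values without halving gave 40 kept in enterocyte-like and 86 lower in tuft-like cells. Enterocyte-like cluster 13 alone gave 126 lower, 14 kept and 26 higher.

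The summed enterocyte-like to stem-like ratio of 0.496 was 0.460 when thinned, 0.483 without the cells of highest doublet score, 0.513 without cells above 80% mitochondrial UMIs, 0.517 with each cell counted once per peak, 0.538 beyond 5 kb from any start and 0.538 when scaled to promoter peaks, 0.602 under the median scaling and 0.394 within 50 kb. Single enterocyte-like clusters gave 0.461 (cluster 0), 0.524 (cluster 4) and 0.540 (cluster 13). The single-cluster, tuft with lymphocytes, goblet without cluster 12 and added-cluster alternatives were chosen after seeing the data. Resolution 0.5 gave no stem-like class and so no value. No paired analysis was possible because 1 animal gave all cells. Depth limits the small classes most: a kept call could rarely be made in tuft-like cells.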
